A study of Homo sapiens with 83 samples.

Results

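The nuclear-encoded subunits of oxidative phosphorylation were examined in human neuroblastoma cells in which N-MYC activity can be switched. The members were chosen by symbol (the NDUFA, NDUFB, NDUFC, NDUFS and NDUFV series, NDUFAB1, the UQCR genes, COX4 to COX8, the ATP5 genes, SDHA to SDHD, CYC1 and CYCS, pseudogenes left out). Of 60237 genes in the expression table, 89 carried such a symbol, and 81 of them had a mean of at least 1 TPM (transcripts in every 1000000 of the library, corrected for transcript length) in at least one cell line. They comprised 37 of 37 listed subunits of complex I, 4 of 4 of complex II, 9 of 10 of complex III, 12 of 18 of complex IV, 18 of 19 of complex V and cytochrome c. NDUFA4, named as a complex I gene, is counted here with complex IV.

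The electron transport chain passes electrons from NADH (complex I) and succinate (complex II) through complex III, the carrier cytochrome c and complex IV to oxygen, pumping protons that complex V, the ATP synthase, uses to make ATP. Its subunits come from both genomes: mitochondrial DNA encodes a small catalytic set, while most subunits and every assembly factor are nuclear. Several complex IV subunits exist as a widespread and a muscle, lung or testis isoform. MYC proteins are known to bind E-boxes (CACGTG) and to promote mitochondrial gene expression in many tumors.

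SHEP and SKNAS are established neuroblastoma lines without amplified MYCN that were engineered to express N-MYC-ER, an N-MYC protein fused to an estrogen receptor domain that stays inactive until 4-hydroxytamoxifen (4OHT) is added. Cultures received 0.5 µM 4OHT (MYC-ON) or ethanol (MYC-OFF) for 24 h, were then entrained with 0.1 µM dexamethasone, and were harvested every 4 h from circadian time (CT) 24 h to CT76. All groups thus carried the fusion protein and received dexamethasone, and no group without the fusion entered. SHEP was followed in 2 series (28 MYC-OFF and 28 MYC-ON libraries) and SKNAS in 1 (14 MYC-OFF libraries and 13 MYC-ON libraries, the latter to CT72). A line is a single engineered population, and p-values measure the spread between time points of these series.

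MYCN transcript, which includes the fusion, lay between 406 and 688 TPM in SHEP MYC-OFF and between 255 and 515 TPM in SHEP MYC-ON, so the transgene was present in every SHEP library. In SKNAS it ranged from 29.1 to 987 TPM in MYC-OFF and from 13.1 to 1046 TPM in MYC-ON. Read depth per library is unknown, because every library sums to 1000000 TPM. Of 8 mesenchymal markers, 7 had a mean of at least 1 TPM in SHEP MYC-OFF and all 8 did in SKNAS, whereas of 8 adrenergic markers 2 did in SHEP and 5 in SKNAS. The summed level of the mesenchymal markers was higher in SHEP, with a median of 4234 TPM in MYC-OFF against 1916 TPM in SKNAS MYC-OFF. Over both conditions VIM had the highest mean log2(TPM + 1) of them, 11.7 in SHEP and 10.5 in SKNAS. FN1, CD44, FOSL1, FOSL2 and SNAI2 were also higher in SHEP. PRRX1 (1.46 in SHEP and 5.72 in SKNAS) and TWIST1 (5.04 and 5.98) went the other way. The summed adrenergic level in SKNAS was 264 to 611 TPM in MYC-OFF and 82.8 to 261 TPM in MYC-ON, and in SHEP 28.5 to 44.2 TPM and 37.9 to 55.8 TPM. Libraries of SKNAS differed in their overall makeup: the median gene of a library, as log2(TPM + 1), ranged from 2.97 to 4.38 in MYC-OFF and from 2.76 to 4.25 in MYC-ON, and was at least 3.8 in 10 of 14 MYC-OFF but in 3 of 13 MYC-ON libraries. MYCN in SKNAS moved with it, at 516 to 987 TPM in high-median and 29.1 to 179 TPM in low-median MYC-OFF libraries, and at 633 to 1046 TPM and 13.1 to 464 TPM in the MYC-ON libraries. In SHEP the median stayed between 3.93 and 4.17. In SHEP MYC-ON series 2, the libraries at CT64, CT68 and CT72 had the most genes above 0, with 24697, 24896 and 25484 against 21783 to 23477 in series 1, although the next in their own series, CT36 and CT48, had 24203 and 23792.

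The 81 members together made up 1.93% to 2.44% of all TPM in SHEP MYC-OFF (median 2.16%) and 1.79% to 2.64% in SHEP MYC-ON (median 2.39%). In SKNAS the share was larger and wider, 2.54% to 5.04% in MYC-OFF and 2.42% to 5.58% in MYC-ON. It followed the library median: MYC-OFF libraries with a high median held 2.54% to 3.40% and the 4 with a low one 3.88% to 5.04%, while MYC-ON libraries held 2.42% to 2.92% and 3.59% to 5.58%, respectively. Within libraries of like median the 2 conditions therefore spanned similar shares. For this reason the SKNAS changes of single genes are given both on TPM as deposited and with the library median as a covariate. TPM measures a share of RNA, so a lower level and a larger share taken by other RNAs cannot be told apart in these bulk cultures.

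**Figure D1:**
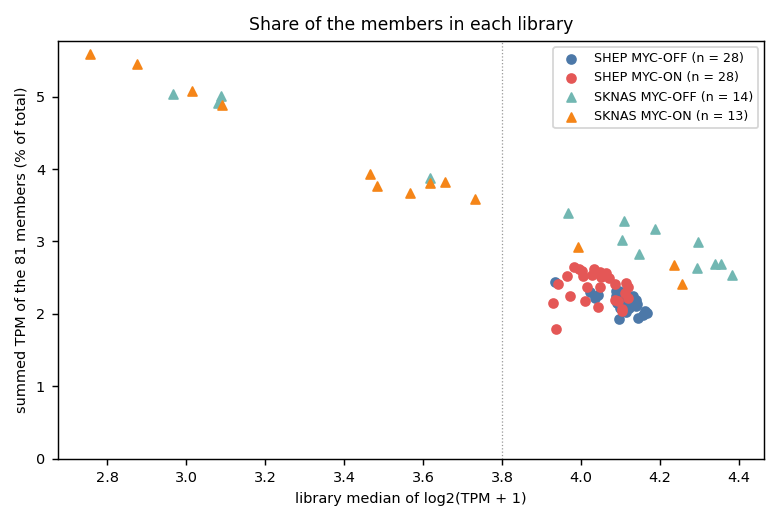
Summed TPM of the 81 members (vertical axis, percent of all TPM) against the library median of log2(TPM + 1) (horizontal axis), 1 point per library, colored by group, with a dotted line at 3.8. SKNAS libraries with a median under 3.8 hold 3.59% to 5.58%, and SHEP libraries lie together between 1.79% and 2.64%.

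The promoters of 5 complex I genes are shown: NDUFA2, NDUFB1, NDUFA13 and NDUFAB1 had some of the largest changes in either direction, and NDUFS7 holds an E-box. They were chosen after their values were seen. Promoter sequences are those of RefSeq (GRCh38.p14), and 67 of the 81 members had an entry. Each run holds the 250 bases before the start annotated by RefSeq, 5′ to 3′ on the strand of the gene. In the Gencode annotation NDUFA13 begins at chr19:19515736 and NDUFS7 at chr19:1383527, so their runs lie inside those genes. The runs of NDUFA2 and NDUFB1 overlap the Gencode span of their gene in part. Matches before the RefSeq start can thus lie after another annotated start. Capitals mark matches, on either strand, to any of 6 motifs: CACGTG (the E-box), its variant CACGCG, the ETS factor core CCGGAAG, AAGATGGC (YY1), the palindromic NRF1 site and CCAAT. NDUFA2 (chr5:140647631-140647880 on the minus strand), NDUFB1 (chr14:92121707-92121956 on the minus strand) and NDUFA13 (chr19:19515975-19516224 on the plus strand) were lower in SHEP MYC-ON, and NDUFS7 (chr19:1383657-1383906 on the plus strand) and NDUFAB1 (chr16:23596317-23596566 on the minus strand) were higher.
NDUFA2: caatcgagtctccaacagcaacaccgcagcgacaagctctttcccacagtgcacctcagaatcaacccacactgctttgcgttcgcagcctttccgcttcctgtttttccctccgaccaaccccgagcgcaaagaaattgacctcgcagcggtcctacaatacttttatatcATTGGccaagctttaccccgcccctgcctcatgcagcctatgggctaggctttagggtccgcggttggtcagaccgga
NDUFB1: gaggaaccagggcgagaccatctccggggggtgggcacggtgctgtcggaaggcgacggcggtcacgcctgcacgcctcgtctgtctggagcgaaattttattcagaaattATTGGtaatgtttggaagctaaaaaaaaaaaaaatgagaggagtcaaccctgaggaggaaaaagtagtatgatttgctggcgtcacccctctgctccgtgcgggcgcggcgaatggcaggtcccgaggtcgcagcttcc
NDUFA13: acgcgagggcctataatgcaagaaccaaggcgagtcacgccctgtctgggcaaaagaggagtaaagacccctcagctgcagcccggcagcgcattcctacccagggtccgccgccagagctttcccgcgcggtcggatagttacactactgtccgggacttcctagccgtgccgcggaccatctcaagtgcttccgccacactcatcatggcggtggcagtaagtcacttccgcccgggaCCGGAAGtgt
NDUFS7: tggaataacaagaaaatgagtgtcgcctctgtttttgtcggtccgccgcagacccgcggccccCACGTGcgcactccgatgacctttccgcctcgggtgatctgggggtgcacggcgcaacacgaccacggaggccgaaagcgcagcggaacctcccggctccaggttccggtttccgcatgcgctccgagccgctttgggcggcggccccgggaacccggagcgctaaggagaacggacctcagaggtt
NDUFAB1: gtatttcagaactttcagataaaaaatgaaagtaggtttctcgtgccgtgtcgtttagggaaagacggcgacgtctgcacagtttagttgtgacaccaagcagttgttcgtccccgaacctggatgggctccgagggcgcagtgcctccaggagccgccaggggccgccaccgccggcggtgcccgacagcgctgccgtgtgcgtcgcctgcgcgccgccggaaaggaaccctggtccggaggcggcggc
The capitals are a CCAAT match 78 bases before the start of NDUFA2 and 139 bases before that of NDUFB1, an ETS match 10 bases before that of NDUFA13, and an E-box 187 bases before that of NDUFS7. The stretch of NDUFAB1 held none of the 6.

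Over windows from 250 bases before to 50 after the start, CCGGAAG occurred in 29.9% of the 67 members against 10.7% of 27305 promoters of the same length, AAGATGGC in 16.4% against 3.03%, the NRF1 site in 5.97% against 1.36%, and CACGCG in 20.9% against 11.4%. The E-box occurred in 7 of 67 members (10.4%; 7.43% of all promoters), CCAAT in 34.3% against 35.7%. Split by the SHEP result given next, CCAAT stood in 9 of 13 members that were lower, 6 of 32 that were higher and 8 of 22 that were not called. The E-box stood in 0 of 13, 3 of 32 and 4 of 22 of them, and AAGATGGC in 2 of 13, 8 of 32 and 1 of 22. In the same order CCGGAAG stood in 5 of 13, 5 of 32 and 10 of 22, CACGCG in 2, 8 and 4, and the NRF1 site in 0, 2 and 2. The motifs were searched with the SHEP changes known and the split was not tested. These counts describe letters in a window and not bound sites.

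Activation of N-MYC moved the subunits of SHEP in both directions. In limma fits across 14362 genes, where a call needed a change of 0.15 or more on the log2(TPM + 1) scale and a p adjusted by Benjamini-Hochberg over all genes of 0.05 or less, 39 of 81 members rose and 14 fell, whereas 33% of all genes were called higher and 38.9% lower. The median member changed by 0.13 (log2) and the median of all genes by -0.036. All 53 called members had the same sign in series 1 and series 2 taken alone. Changes were mostly small. Past 0.66 on the log2 scale, a cut-off that the study takes for 1.5-fold, stood 2 rises and 0 falls, against 9.39% and 11.4% of all genes. The TPM ranges did not overlap for 5 members that were higher (NDUFA10, NDUFB9, NDUFV1, SDHB and UQCRFS1; 6.11% of all genes) and for 1 that was lower (NDUFA13; 6.36%), and 13 were higher and 5 lower in each of the 28 pairs of libraries from the same series and CT (11.6% and 16.3%). With the 2 series means per condition as the replicates, 26 members were called higher and 4 lower by the same test. Member transcripts are short (median 643 bases against 1094.5 for all tested genes). With the library's slope of level on transcript length as a covariate 34 were called higher and 22 lower. For the series-mean and length-slope fits the shares of all genes are not given, so these counts describe the members alone.

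The largest rises were in complex I. NDUFB9, an accessory subunit of the membrane arm, had a lowest, median and highest level of 226, 271 and 308 TPM over the 28 MYC-OFF libraries and 428, 565 and 691 TPM over the 28 MYC-ON libraries. These ranges did not overlap, and the change was 1.06 ± 0.04 (log2, SE; limma adjusted p = 6.35e-26). NDUFAB1, the mitochondrial acyl carrier protein that also serves fatty acid and lipoic acid synthesis, went from 141, 164 and 189 TPM to 164, 299 and 387 TPM (0.82 ± 0.04). It was higher in 28 of 28 pairs, although the ranges overlapped through 1 low series 2 library. NDUFA10, an accessory subunit of the membrane arm (ENSG00000130414, chr2:239892450-240025743 in GRCh38), went from 151, 167 and 183 TPM to 225, 251 and 282 TPM without overlap (0.58 ± 0.02; limma adjusted p = 9.81e-27). NDUFS6, of the NADH-oxidizing module, went from 196, 222 and 301 TPM to 250, 331 and 405 TPM, with overlapping ranges (0.54 ± 0.04).

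The largest falls were accessory subunits of the same complex. NDUFA13, also known as GRIM-19 (ENSG00000186010, chr19:19515736-19529054), had 500, 552 and 672 TPM in MYC-OFF and 265, 384 and 487 TPM in MYC-ON, again without overlap (-0.59 ± 0.05; limma adjusted p = 1.7e-14). NDUFB1 went from 212, 267 and 338 TPM to 146, 192 and 234 TPM and was lower in 28 of 28 pairs (-0.45 ± 0.04). Both fell to a like extent in each series, by 0.54 and 0.64 for NDUFA13 and by 0.47 and 0.43 for NDUFB1. The falls of NDUFA2 (-0.57 ± 0.10), NDUFA1 (-0.53 ± 0.10) and NDUFA3 (-0.37 ± 0.09) rested more on series 2. NDUFA1 changed by -0.23 in series 1 and -0.82 in series 2, NDUFA2 by -0.32 and -0.82, and NDUFA3 by -0.14 and -0.60. Without the 3 libraries of series 2 at CT64 to CT72, the changes were -0.38 for NDUFA1, -0.43 for NDUFA2 and -0.24 for NDUFA3.

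**Figure D2:**
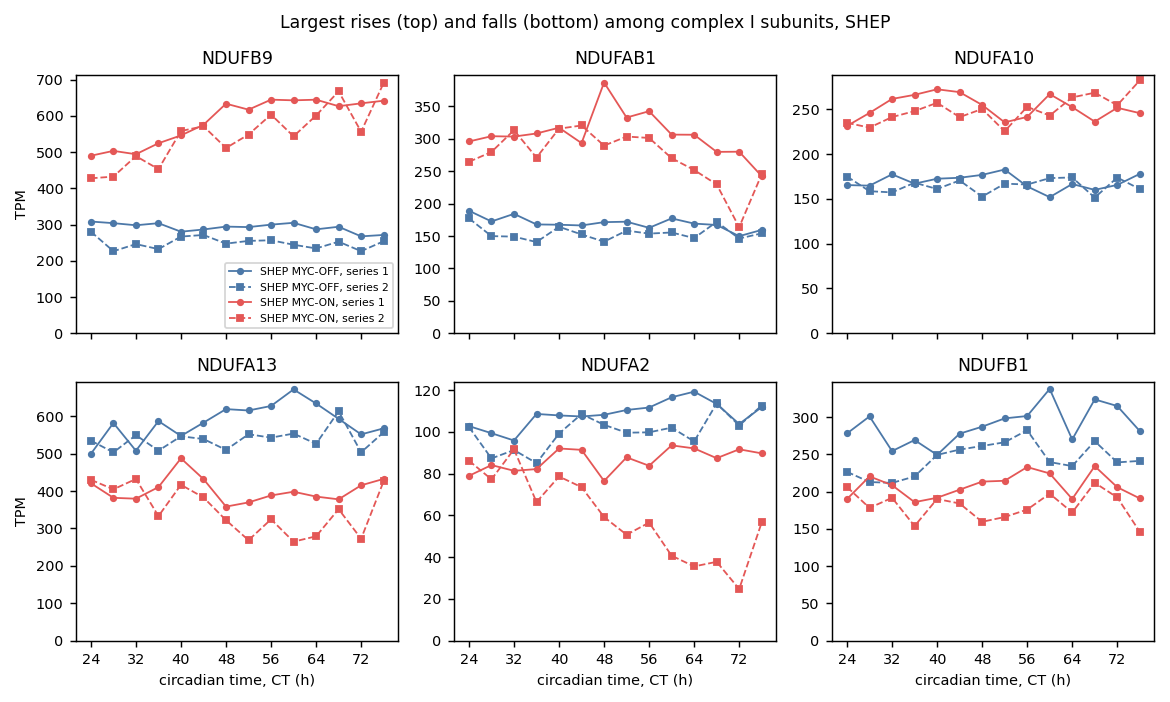
TPM (vertical axes, from 0) against CT in hours for 3 complex I subunits with large rises (top) and 3 with large falls (bottom) in SHEP; each point is 1 library, circles and solid lines are series 1, squares and dashed lines series 2, blue MYC-OFF and red MYC-ON. NDUFB9 lies between 428 and 691 TPM in MYC-ON and between 226 and 308 TPM in MYC-OFF, and NDUFA2 reaches 24.7 TPM in a late series 2 library.

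The complexes differed in how their members were split. Complex I had 20 of 37 higher and 8 lower, with a median of 0.20. All 8 of its falls were accessory subunits (16 of 30 higher, 8 lower), while of the 7 core subunits of the catalytic arm, which hold the flavin and the iron-sulfur clusters, 4 rose and 0 fell. In complex II, the succinate dehydrogenase, the catalytic pair SDHA (0.39 ± 0.02) and SDHB (0.47 ± 0.03) rose and the membrane anchors SDHC (0.00) and SDHD (-0.05) were not called. SDHB went from 103, 116 and 123 TPM to 136, 161 and 180 TPM, without overlap. Complex III had the highest median (0.29), with 6 of 9 higher and 1 lower. UQCRFS1, its Rieske iron-sulfur protein, went from 28.2, 32.7 and 37.2 TPM to 37.8, 47.8 and 53.3 TPM without overlap (0.51 ± 0.03), and CYC1, its heme-bearing cytochrome c1, from 150, 169 and 197 TPM to 136, 246 and 285 TPM with overlap (0.43 ± 0.06). UQCRB, a small accessory subunit, was its only fall (-0.18).

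Complex IV, which receives the electrons from cytochrome c, had a median of -0.033, close to that of all genes. COX5A rose, from 274, 323 and 378 TPM to 290, 464 and 585 TPM (0.49 ± 0.05), as did COX7B (0.35 ± 0.07). COX8A (-0.28 ± 0.06), COX7A2L (-0.26 ± 0.05) and COX6B1 (-0.24 ± 0.08) fell, and the other 7 of 12 were not called. The fall of COX6B1 was -0.03 in series 1 and -0.46 in series 2, and was no longer called without the 3 libraries at CT64 to CT72 (-0.12). Complex V had 8 of 18 higher and 2 lower with a median of 0.11. ATP5F1B, the catalytic beta subunit, went from 497, 546 and 638 TPM to 578, 778 and 830 TPM (0.47 ± 0.03), and it was higher in 28 of 28 pairs. The alpha subunit ATP5F1A was not called (0.10 ± 0.03). The falls were ATP5IF1, the inhibitor that blocks ATP hydrolysis (-0.37), and the stalk subunit ATP5PD (-0.25). Cytochrome c itself, CYCS (ENSG00000172115, chr7:25118656-25125260), which also triggers the apoptosome once released, went from 167, 189 and 229 TPM to 163, 240 and 319 TPM (0.32 ± 0.04), with overlap.

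**Figure D3:**
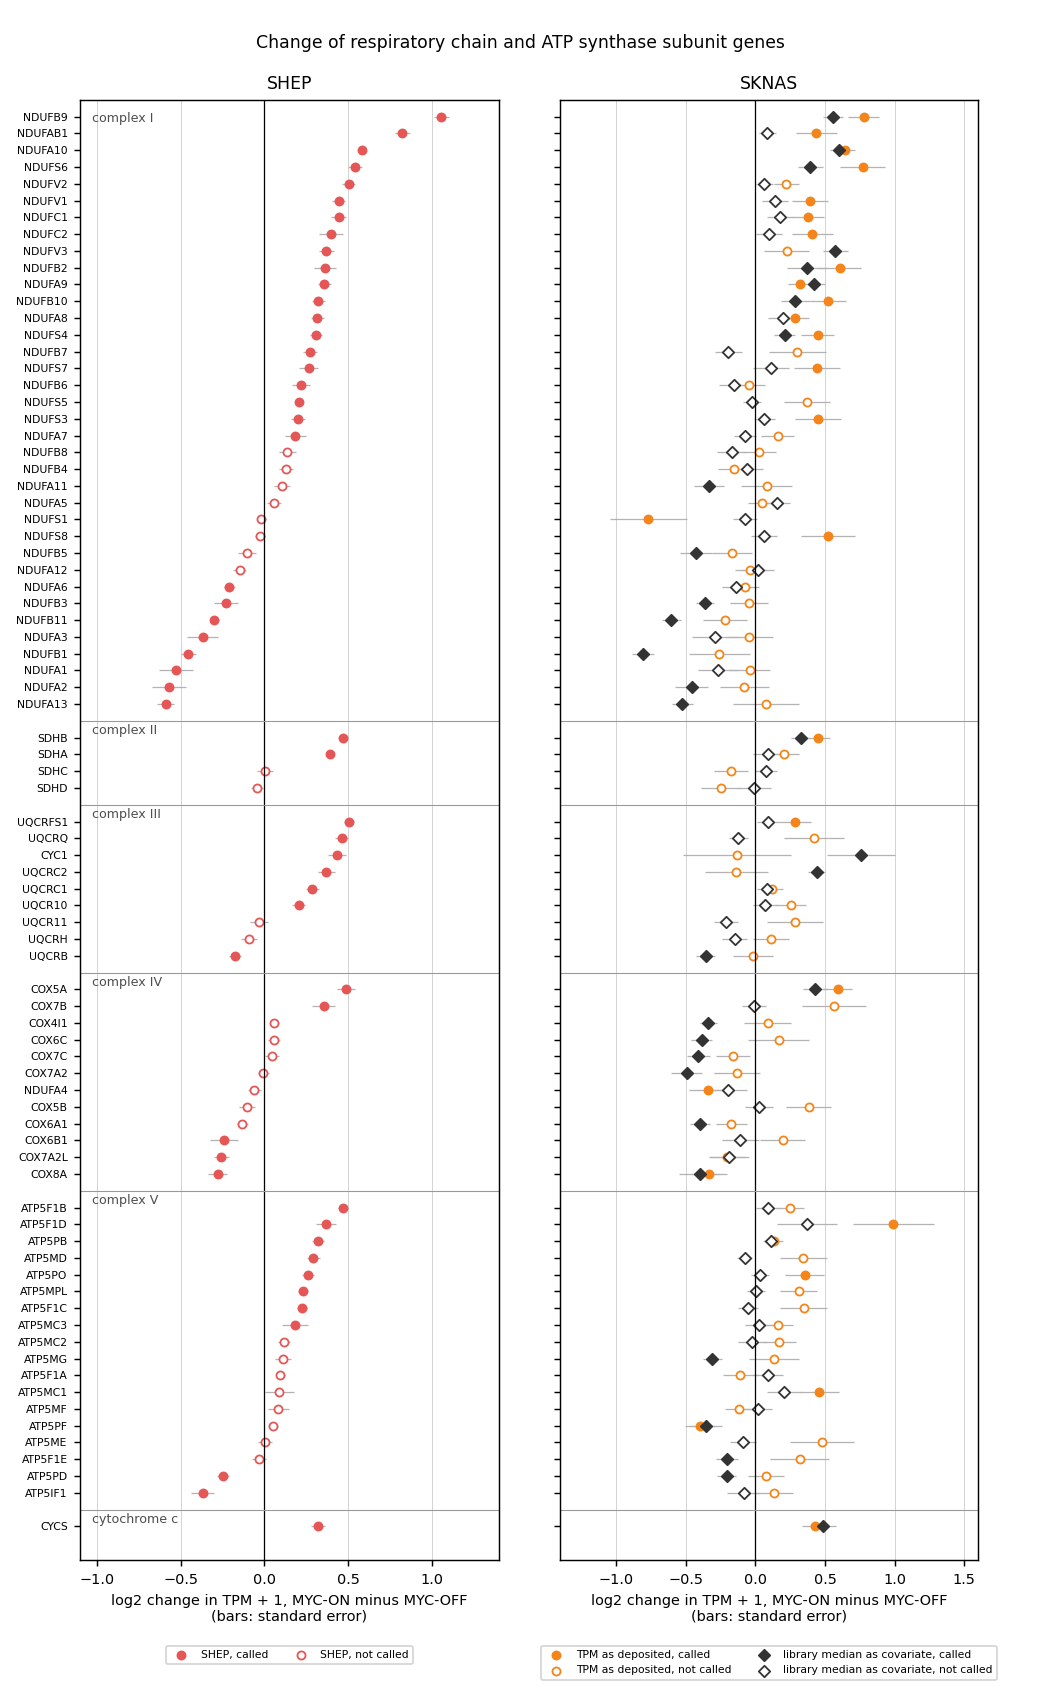
Log2 change in TPM + 1, MYC-ON minus MYC-OFF (horizontal axes, bars are standard errors), for the members reported, grouped by complex, in SHEP (left) and in SKNAS (right); filled symbols were called. In SKNAS circles give TPM as deposited and diamonds the fit with the library median as a covariate. NDUFB9 stands at 1.06 in SHEP, and NDUFB1 at -0.26 and -0.81 in the SKNAS fits.

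Assembly factors and regulators mostly rose in SHEP. Of 56 nuclear assembly factors, which are not built into the finished complexes, 34 rose and 10 fell, with a median of 0.36 against 0.13 for the members. TMEM70, needed for the ATP synthase (1.04), BCS1L, which inserts the Rieske protein (0.99), and NDUFAF5 (0.93) rose most, and UQCC2 (-0.59), COX20 (-0.49) and COX14 (-0.47) fell most. Of 12 tested regulators of mitochondrial gene expression, 9 rose and 0 fell, with TFB1M (0.92), PPARGC1B (0.66) and the mitochondrial RNA polymerase POLRMT (0.53) at the top. Named after their values were seen, for the motifs above, NRF1 rose by 0.16 and YY1 changed by 0.015, which was not called. The ETS factor subunit GABPA changed by 0.08, not called, and its partner subunit GABPB1 rose by 0.39. The 13 mitochondrial DNA encoded subunits had a median of -0.01, with MT-ND4 (0.31) and MT-ND2 (0.24) called higher and MT-ND1 (-0.42), MT-CYB (-0.40) and MT-CO3 (-0.38) called lower. These libraries were selected for polyadenylated RNA, in which mitochondrial transcripts made up 6.10% to 17.1% of TPM in SHEP.

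In SKNAS, 22 of 81 members rose and 5 fell on TPM as deposited, against 13.9% and 34.2% of all 13886 genes tested. With the library median as a covariate, 13 rose and 18 fell (28.3% and 25.9% of all genes), and the median member moved from 0.17 to -0.011. The median of all genes was -0.29 and 0.013 in these fits. After median-of-ratios rescaling, which set it to 0.012, 33 rose and 1 fell. In the 13 high-median libraries alone (10 MYC-OFF and 3 MYC-ON) 10 rose and 23 fell. For the rescaled and high-median fits the shares of all genes are not given, so these counts describe the members alone. So the balance of rises and falls in SKNAS depended on how the library makeup was treated, and only members called in both fits are described as changed. The transgene level moved with the library median in SKNAS too. The summed adrenergic markers were lower in every SKNAS MYC-ON library (82.8 to 261 TPM) than in any MYC-OFF library (264 to 611 TPM). The part of either in the changes was not tested. None of the 81 was called in opposite directions in SHEP and SKNAS in either fit.

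The study's 1.5-fold cut-off of 0.66 (log2) was also applied to SKNAS TPM as deposited. Past it stood 3 positive changes, of ATP5F1D, NDUFB9 and NDUFS6 (6.99% of all genes), and 1 negative, of NDUFS1 (23.8%). Of these, ATP5F1D and NDUFS1 were not called with the covariate. NDUFA10 (0.65), NDUFB2 (0.60) and COX5A (0.59) were called in both fits but lay under this cut-off.

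On TPM as deposited, 20 members were called higher in both lines (11.6% of all genes tested in both), and 1, COX8A, lower in both (24.1%). With the covariate in SKNAS, 13 were higher in both lines (21.2%) and 8 were lower in both (18.2%). In all these fits 10 members rose: COX5A, CYCS, NDUFA10, NDUFA9, NDUFB10, NDUFB2, NDUFB9, NDUFS4, NDUFS6 and SDHB. COX8A fell in each of them, but changed by 0.017 in SKNAS after rescaling and was then not called.

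NDUFA10 gave the firmest change in SKNAS. Its lowest, median and highest levels were 121, 145 and 177 TPM over 14 MYC-OFF libraries and 204, 224 and 263 TPM over 13 MYC-ON libraries. It was the only member of the 81 whose SKNAS ranges did not overlap (2.32% of all genes were higher without overlap and 2.09% lower), and it was higher in 13 of 13 pairs (4.9% of all genes). The change was 0.65 ± 0.07 as deposited (limma adjusted p = 3.36e-06) and 0.60 ± 0.06 with the covariate. NDUFB9 went from 676, 809 and 1360 TPM to 998, 1561 and 1972 TPM, by 0.78 ± 0.11 and 0.56 ± 0.07. Among libraries with a high median its lowest and highest levels were 676 and 865 TPM in MYC-OFF and 998 and 1250 TPM in MYC-ON, so these did not overlap. NDUFS6 (0.77 ± 0.16 and 0.39 ± 0.09), NDUFB2 (0.60 ± 0.15 and 0.37 ± 0.15), COX5A (0.59 ± 0.10 and 0.43 ± 0.09), SDHB (0.45 ± 0.09 and 0.32 ± 0.07) and CYCS (0.43 ± 0.09 and 0.48 ± 0.10) rose in both fits. In the high-median libraries alone the changes of NDUFS6 (0.25), COX5A (0.11) and NDUFB2 (0.085) were not called, while those of NDUFA10 (0.61), NDUFB9 (0.53), SDHB (0.37) and CYCS (0.30) were. The high-median MYC-ON libraries were only those at CT32, CT44 and CT52. At CT52 the MYC-OFF library had a low median, so only CT32 and CT44 held both conditions, and these calls rest on few libraries. CYCS went from 137, 188 and 231 TPM to 193, 245 and 313 TPM, levels close to those in SHEP.

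Other members moved with the library. ATP5F1D, the delta subunit of the ATP synthase central stalk, had the largest change as deposited (0.99 ± 0.29), but its levels among high-median libraries were 193 to 337 TPM in MYC-OFF and 203 to 306 TPM in MYC-ON, and with the covariate the change was 0.37 ± 0.21 and not called. NDUFS1, the largest iron-sulfur subunit of complex I, had the largest negative value (-0.77 ± 0.27), but changed by -0.07 ± 0.09 with the covariate and was not called. Its level was 78.9 to 110 TPM in the high-median MYC-OFF libraries and 22.1 to 43.7 TPM in the others. CYC1 ranged from 12.4 to 223 TPM in MYC-OFF and from 13.8 to 257 TPM in MYC-ON, and changed by -0.13 ± 0.39 as deposited and 0.76 ± 0.25 with the covariate. In the opposite direction, NDUFB1 changed by -0.26 ± 0.22 as deposited, with adjusted p = 0.336, and by -0.81 ± 0.08 with the covariate. Its levels were 382 to 597 TPM in high-median MYC-OFF libraries and 231 to 336 TPM in high-median MYC-ON libraries, which did not overlap. NDUFA4 (-0.34 and -0.20) was called lower as deposited but not with the covariate, and ATP5PF (-0.40 and -0.35) in both fits. ATP5PF was lower in 13 of 13 pairs (7.98% of all genes), while in SHEP it changed by 0.05 and was not called. After rescaling its SKNAS change was -0.048 and not called.

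By complex, SKNAS as deposited had 15 of 37 complex I members higher and 2 lower, 1 of 4 and 0 in complex II, 1 of 9 and 0 in complex III, 1 of 12 and 2 in complex IV, and 3 of 18 and 1 in complex V. With the covariate the counts were 8 and 7 in complex I, 1 and 0 in complex II, 2 and 1 in complex III, 1 and 6 in complex IV, and 0 and 4 in complex V. Complex IV had the lowest median of the complexes in SHEP and in both SKNAS fits, at -0.022 and -0.27 in the latter. Assembly factors rose in 22 of 56 cases as deposited and in 25 with the covariate, and fell in 3 and 9. As deposited, ECSIT (1.19), NDUFAF2 (1.11) and NDUFAF4 (1.07), all of complex I assembly, rose most and ACAD9 (-0.55), ATPAF1 (-0.46) and COX20 (-0.38) fell most. With the covariate TMEM70 (1.05), ECSIT (1.03) and NDUFAF2 (1.03) rose most and PET100 (-0.56), SURF1 (-0.54) and COX20 (-0.51) fell most. Of the 12 regulators 5 rose and 1 fell as deposited, and 11 rose with the covariate. The mitochondrial DNA encoded subunits had 0 of 13 higher and 3 lower as deposited, and 3 higher and 0 lower with the covariate.

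The MYC effect itself was compared between the lines by an interaction term. The SKNAS change was called more positive than the SHEP change for 12 members and more negative for 16, against 13.5% and 38.1% of all 15942 genes. With the library median as a covariate it was more positive for 0 (24.8% of all genes) and more negative for 32 (22.1%). Among the 12 members with a more negative change in SKNAS in both fits were ATP5F1B, ATP5PB, ATP5PF, NDUFAB1, NDUFB6, NDUFB9, NDUFS1, NDUFV2, SDHA, UQCRC1 and UQCRFS1. With the spread estimated for each line and no covariate, 3 were more positive and 3 more negative, and after rescaling 31 and 2. Without SHEP series 1 the counts were 10 and 6, and without series 2 they were 2 and 8. For the spread per line, the rescaling and the single series the shares of all genes are not given. For NDUFAB1 the median went from 380 to 575 TPM in SKNAS, and the difference in change was -0.39 as deposited, -0.68 with the covariate and -0.11, not called, after rescaling. NDUFB9 rose in both lines, with a difference of -0.28 as deposited and -0.49 with the covariate, but of -0.0024 after rescaling. Several of the more positive differences belonged to members that fell in SHEP and lay near 0 in SKNAS as deposited, such as NDUFA13 (-0.59 and 0.08), NDUFA2 (-0.57 and -0.08) and NDUFA1 (-0.53 and -0.04).

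The lines also differed before activation. Among MYC-OFF libraries 39 members were higher in SKNAS than in SHEP by at least 0.66 (log2) and 0 lower, against 20% and 31.1% of all genes. With the library median as a covariate 26 were higher and 1 lower (23.3% and 23.9%). With the smaller threshold of 0.15, 63 were higher and 8 lower, for which no shares of all genes are given. Complex I held 19 of the 39. NDUFB9 differed most (271 against 809 TPM in the median; 1.68 ± 0.08 and 1.48 ± 0.05 with the covariate), followed by COX7B, NDUFB5, NDUFAB1 and COX6A1 (1.62, 1.42, 1.39 and 1.32). The MYC-OFF ranges did not overlap for 33 members that were higher in SKNAS (10.4% of all genes) and for 2 that were lower, COX7A2L and SDHD (20.4%). CYCS did not differ beyond the spread (-0.07 ± 0.05). The mitochondrial DNA encoded subunits went the other way, with 0 of 13 higher and 8 lower in SKNAS, 2 with the covariate. Line and culture series cannot be told apart here, as each line was grown in its own series.

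The same isoforms predominated in both lines. COX4I2, COX6A2, COX6B2, COX7A1, COX7B2 and COX8C were the tissue-restricted forms under the filter, where UQCRHL and ATP5MGL also lay. COX6A2, the muscle isoform, was listed at 0 in all 83 libraries, and COX4I2, the lung isoform, at 0 in all 56 SHEP libraries with a highest value of 0.978 TPM in SKNAS. COX6B2, a testis isoform, had the highest level of these, with a median of 0.644 TPM in SHEP MYC-OFF and 0.135 TPM in SHEP MYC-ON, against 537 and 499 TPM for COX6B1. The widespread partners stood far above these, as medians in MYC-OFF and MYC-ON, with COX4I1 (663 and 698 TPM in SHEP, 526 and 663 TPM in SKNAS), COX6A1 (682, 643, 1652 and 1606 TPM), COX8A (652, 566, 906 and 696 TPM) and UQCRH (785, 765, 1344 and 1603 TPM in the same order). COX4I1 was not called in SHEP (0.06 ± 0.03), and in SKNAS it changed by 0.09, not called, as deposited and by -0.34, called lower, with the covariate.

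**Figure D4:**
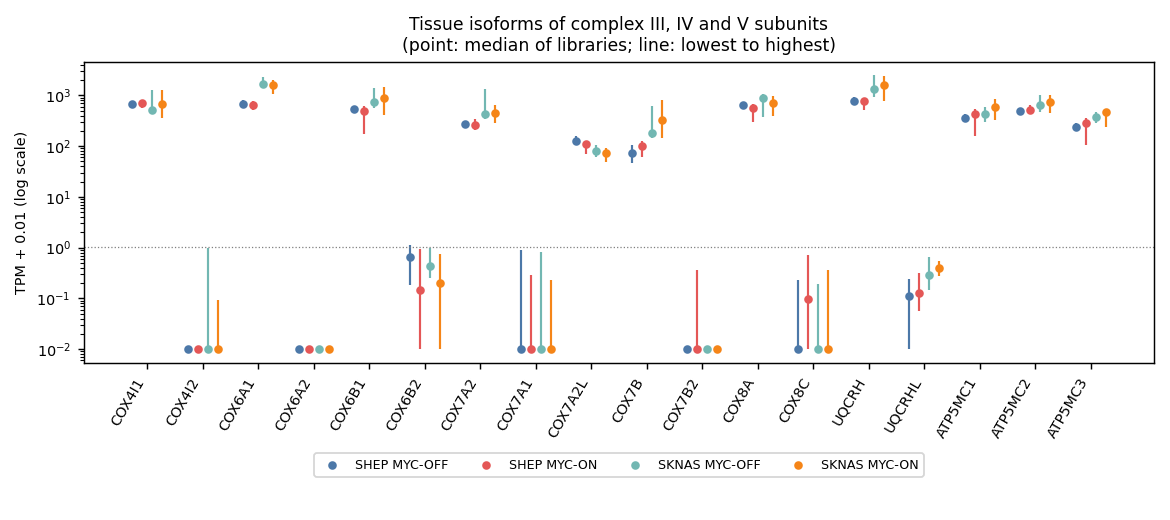
TPM + 0.01 on a log scale for 18 isoform genes of complexes III, IV and V in the 4 groups; points are medians over libraries and lines run from the lowest to the highest library, with a dotted line at 1 TPM. The tissue-restricted forms and UQCRHL lie near or under 1 TPM in every group and the 11 other genes far above it.

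Ratios within a library were tested for the pairs with both genes expressed, by sign-flip permutation of same-CT pairs (8 ratios, Benjamini-Hochberg adjusted together). COX7A2L, which aids the joining of complexes III and IV into supercomplexes, fell against COX7A2 in SHEP MYC-ON, from a log2 ratio of -1.07 ± 0.09 (SD, n = 28) to -1.33 ± 0.17 (n = 28), and was lower in all but 2 of 28 pairs (permutation p = 2e-05, adjusted 0.00016). In SKNAS the ratio was -2.60 ± 0.57 and -2.72 ± 0.51, a pair difference of -0.07 (exact permutation p = 0.71, adjusted 0.811). ATP5MC1, ATP5MC2 and ATP5MC3 encode one and the same mature subunit c of the ATP synthase rotor behind different import signals. Their median shares of the summed TPM were 33.8%, 45.2% and 21.5% in SHEP MYC-OFF and 28.2%, 46.6% and 25.8% in SKNAS MYC-OFF. The ratio of ATP5MC1 to ATP5MC3 changed by -0.09 in SHEP (lower in all but 7 of 28 pairs; permutation p = 0.00436, adjusted 0.0137) and by 0.29 in SKNAS (higher in 11 of 13 pairs; exact permutation p = 0.00513, adjusted 0.0137). That of ATP5MC1 to ATP5MC2 changed by 0.28 in SKNAS (8 of 13 pairs higher; exact permutation p = 0.0144, adjusted 0.0288) and by -0.03 in SHEP (permutation p = 0.693, adjusted 0.811). The ratios were not fitted with the library median. In SKNAS the single genes changed by 0.46 (ATP5MC1), 0.17 (ATP5MC2) and 0.17 (ATP5MC3) as deposited and by 0.21, -0.02 and 0.02 with the covariate, where none of the 3 was called. The difference between the lines in these ratios was not tested. In the SHEP change of ATP5MC1 to ATP5MC3, neither series alone passed the threshold (-0.06 in series 1 and -0.12 in series 2). ATP5MC1 itself was not called in SHEP (0.09 ± 0.09), with 0.29 in series 1 and -0.12 in series 2, and was called higher without the 3 libraries at CT64 to CT72 (0.20).

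The SHEP series also drifted with time, mostly under MYC-ON. The slope over CT, in log2 units per 24 h and called on an adjusted p of 0.05 or less with no minimum size, was called positive for 7 members and negative for 5 in MYC-OFF (5.82% and 10.4% of all genes), and for 15 and 26 in MYC-ON (20% and 37.2%). The slopes differed between the conditions for 31 members, 10 in the positive and 21 in the negative direction (16.1% and 27.4%). In MYC-ON and in the difference the members were called no more often than all genes, so the drift was not particular to them. Without the 3 series 2 libraries at CT64 to CT72, 17 MYC-ON slopes were positive and 17 negative, and after rescaling 27 and 13. The counts leaned on single series. In series 1 alone 19 MYC-ON slopes were positive and 18 negative, with 14 and 4 differences, and in series 2 alone 6 and 23, with 5 and 22 differences. In MYC-OFF, series 1 alone had 1 and 8, and series 2 alone 1 and 0. In each series taken alone, 6 members rose under MYC-ON (ATP5PO, COX6A1, COX6C, NDUFB5, NDUFB9 and NDUFS4) and 10 fell (ATP5MC1, ATP5MC3, ATP5MF, CYCS, NDUFA8, NDUFB3, NDUFC2, NDUFS1, NDUFS3 and NDUFV3). ATP5ME and UQCRH had slopes called in opposite directions, positive in series 1 and negative in series 2. For single series, the rescaled values and the fit without the 3 libraries, the shares of all genes are not given. Those counts therefore describe the members alone.

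NDUFS4, an accessory subunit of the electron input arm, had a mean of 83.1 TPM over the 6 MYC-ON libraries from CT24 to CT32 and 115 TPM over the 6 from CT68 to CT76, without overlap. In MYC-OFF the means were 76.1 and 83.9 TPM. Its slopes were 0.26 ± 0.03 in MYC-ON, 0.25 in series 1 and 0.28 in series 2, and exceeded the MYC-OFF slope by 0.21 ± 0.04 (limma adjusted p = 5.39e-06). NDUFB9 went from a mean of 472 to 636 TPM between the same windows of MYC-ON and from 277 to 261 TPM in MYC-OFF. CYCS ran the other way. It had a mean of 288 TPM early and 184 TPM late in MYC-ON, again without overlap, and 210 and 183 TPM in MYC-OFF, so that over the last 3 time points the ranges of the conditions overlapped. Its slope was -0.33 ± 0.03 in MYC-ON (-0.39 in series 1 and -0.28 in series 2) and differed from that of MYC-OFF by -0.25 ± 0.04. For ATP5MC1 (-0.34 ± 0.06) and ATP5MC3 (-0.33 ± 0.06) the series differed in size, with -0.15 and -0.53 for the former. The slopes of NDUFA1 (-0.33 ± 0.09), -0.015 in series 1 and -0.64 in series 2, and of NDUFA2, 0.075 and -0.65, came from series 2.

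**Figure D5:**
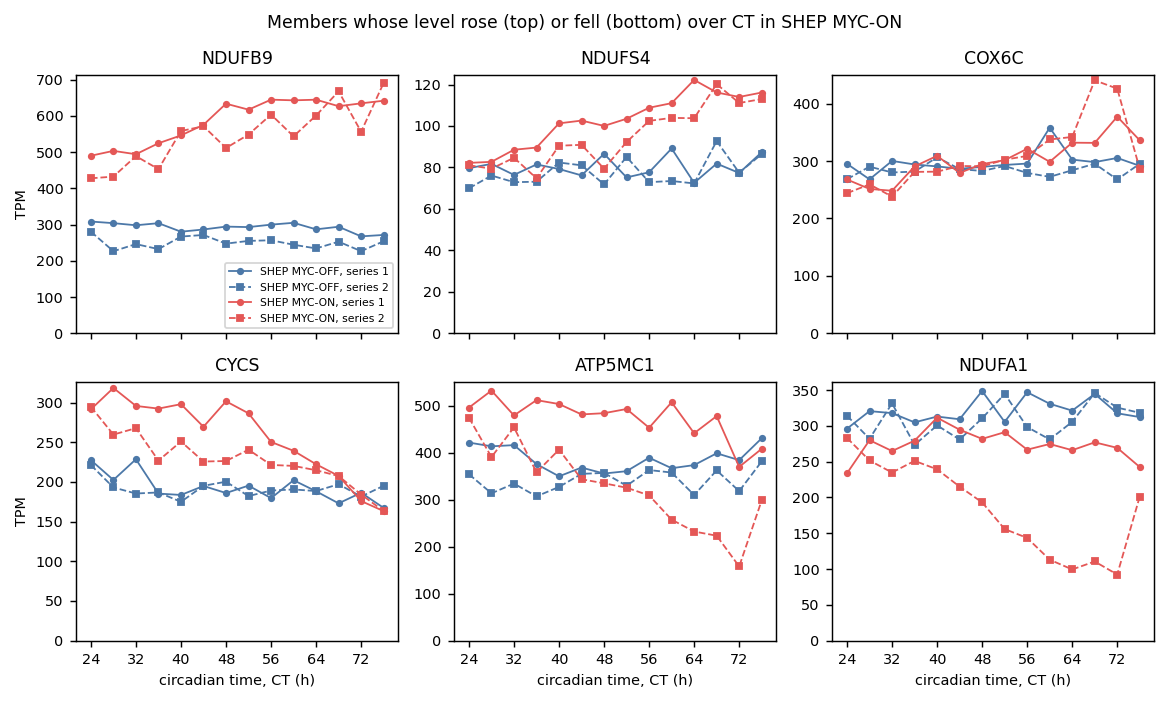
TPM (vertical axes, from 0) against CT in hours in SHEP for 3 members that rose over time (top) and 3 that fell (bottom) in MYC-ON; each point is 1 library, circles and solid lines are series 1, squares and dashed lines series 2, blue MYC-OFF and red MYC-ON. NDUFB9 climbs in both MYC-ON series and CYCS descends in both to 163 to 208 TPM after CT68, whereas NDUFA1 descends to 92.3 TPM in series 2 alone.

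No daily rhythm was called among the subunits. A cosine of 24 h fitted with limma gave 0 of 81 members in MYC-OFF, in MYC-ON and in the test of a difference (0.0975%, 0.0139% and 0% of all genes). At an unadjusted p under 0.05 stood 7, 5 and 2 members in the same order, against 10.6%, 10.9% and 4.81% of all genes. The lowest adjusted p was 0.318 in MYC-OFF and 0.373 in MYC-ON. The largest fitted amplitude was 0.09 in MYC-OFF and 0.12 in MYC-ON (log2), so any rhythm of the subunit transcripts was not detectable at this spacing and spread.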

How the data were processed

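RNA was selected for poly(A) and sequenced as paired reads. The authors quantified it with Salmon 1.3.0 on Gencode transcripts (GRCh38), summed it to genes with tximport and deposited TPM. Each library sums to 1000000 TPM, so depth and counting error are unknown, and the count model of the study was replaced by limma 3.58.1 (R 4.3.3) on log2(TPM + 1), with CT as a factor, for genes with a mean of at least 1 TPM in the line or in either line. The log2(TPM + 1) scale understates changes of low genes. All 83 libraries entered, and a second SKNAS series and other lines were not analysed here. Members and gene lists were chosen with earlier results of these data known. Named members were the isoforms, CYC1, CYCS, NDUFA4, the 5 largest called changes per direction and comparison, the largest change of each complex, and those that differed between lines. Other genes named in a count followed from it.

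The series numbers pair SHEP libraries, since a number marks one experiment with both conditions (deviations of the series correlated at 0.489 over 14362 genes); the pairing as a block left 39 and 14 members. Permutation tests used scipy 1.17.1 with 100000 resamples in SHEP. Each value column matched a sample label, and no libraries were identical. The limma fit was tested on simulated data. The values of 1 member, which is part of all counts, are not reported here.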

Additional observations from a re-analysis of the deposited data

Results flagged for a closer look

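The MYC-ON effect differed between SKNAS and SHEP, by the interaction test on TPM as deposited, for 28 members. Of these differences 12 were above 0 and 16 under 0, against 13.5% and 38.1% of all 15942 genes. The differences (log2, SKNAS minus SHEP) above 0 were NDUFA13 0.67, ATP5F1D 0.62, NDUFS8 0.55, ATP5IF1 0.50, NDUFA2 0.49, COX5B 0.49, NDUFA1 0.49, ATP5ME 0.48, COX6B1 0.44, ATP5MC1 0.37, ATP5F1E 0.35 and ATP5PD 0.33. Among those under 0 were NDUFS1 -0.75, UQCRC2 -0.51, ATP5PF -0.45, NDUFAB1 -0.39, NDUFB4 -0.28, NDUFV2 -0.28, NDUFB9 -0.28, NDUFA4 -0.28, NDUFB6 -0.26, ATP5F1B -0.22, UQCRFS1 -0.22, ATP5F1A -0.20, ATP5PB -0.19, SDHA -0.19 and UQCRC1 -0.16. The share of high-median libraries moves with condition in SKNAS (10 of 14 MYC-OFF, 3 of 13 MYC-ON), and its part in each difference was not tested beyond the covariate fit, in which 12 of the 16 differences under 0 and 0 of the 12 above 0 were called again.

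The slope over CT in SHEP differed between MYC-ON and MYC-OFF, with these members at the extremes (log2 per 24 h, MYC-ON minus MYC-OFF): NDUFB9 0.28, COX6C 0.23, UQCRC1 0.22, NDUFS4 0.21 and ATP5PO 0.16 in the positive direction, and NDUFA2 -0.38, NDUFA1 -0.38, ATP5MC1 -0.36, NDUFB3 -0.33 and COX6B1 -0.32 in the negative. The negative differences of NDUFA2, NDUFA1 and COX6B1 were -0.0051, -0.056 and -0.069 in series 1 and -0.75, -0.70 and -0.56 in series 2. Of all genes 16.1% had a slope difference called positive and 27.4% one called negative, and the members were called no more often.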

How the results depend on the processing

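The counts in this section are given without shares of all genes, so they describe the members alone. In SHEP no called change of the 27 named members changed sign under the alternatives run. The replicate block, which pairs the series, gave 39 higher and 14 lower members, and 39 and 16 together with the length slope. Falls numbered 22 with the length slope as covariate, 22 with length slope and library median together, and 4 with series means as replicates. Past 0.66 (log2), the study's cut-off for 1.5-fold here and below, falls numbered 0 and rises 2. Without one series rises ranged from 35 to 44 and falls from 11 to 17. In SKNAS rises numbered 13 with the library median, 12 with the length slope, 10 in high-median libraries alone and 3 past 1.5-fold, and falls 18, 18, 23 and 1, with 2 for no filter on low values and 1 after median-of-ratios rescaling. Differences between lines in the higher and lower direction numbered 31 and 2 after rescaling, 0 and 32 with the median, 5 and 27 with the length slope, 1 and 1 past 1.5-fold, 1 and 31 in high-median libraries, 3 and 3 with a spread per line, and 0 and 31 with both median and spread, and ranged from 2 to 10 and from 6 to 8 without one series. In MYC-OFF SKNAS was higher in 18 with the length slope, 25 in high-median libraries and 63 at 0.15, and lower in 1 with pseudocount 0.1, 1 with the median, 1 without mitochondrial DNA encoded genes, 5 with the length slope and 8 at 0.15 (0 to 1 without one series).

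Slopes in MYC-OFF numbered 3 up and 2 down with no replicate block, 2 and 3 with the median, and 1 down after rescaling (1 to 1 up and 0 to 8 down without one series). Slopes in MYC-ON numbered 27 up and 13 down after rescaling, 6 up with the length slope, and 17 down without the series 2 libraries at CT64 to CT72 (6 to 19 up without one series). Slope differences numbered 16 up and 12 down after rescaling and 6 up with the length slope (5 to 14 up and 4 to 22 down without one series). Rhythms stayed at 0 members under each alternative run.

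Changed in sign in SKNAS, where called in either fit, were COX4I1 with the median (-0.34), the length slope (-0.29) and high-median libraries (-0.31), CYC1 with the median (0.76), ATP5MC1 (-0.014) and COX6B1 (-0.47) in high-median libraries, and COX8A (0.017) and NDUFA4 (0.0078) after rescaling. Differences between lines that did so were, in high-median libraries, ATP5F1D -0.30, ATP5IF1 -0.034, ATP5MC1 -0.10, ATP5ME -0.22, ATP5PD -0.0078, COX5B -0.11, COX6B1 -0.23, NDUFA1 -0.25, NDUFA13 -0.063, NDUFA2 -0.32 and UQCRC2 0.019. After rescaling they were ATP5F1A 0.075, ATP5F1B 0.054, ATP5PB 0.087, NDUFB6 0.013, SDHA 0.091, UQCRC1 0.11 and UQCRFS1 0.058. With the median they were ATP5F1E -0.083 and ATP5ME -0.016 (-0.069 and -0.018 with a spread per line), and with median and length slope ATP5F1A 0.073, ATP5F1E -0.14, NDUFA4 0.031 and UQCRC2 0.074. Values called in neither fit, such as that of UQCRH in SKNAS, also changed sign. The isoform ratio of ATP5MC1 to ATP5MC3 in SHEP lost its call without either series (-0.12 to -0.064), and that of ATP5MC2 to ATP5MC3 gained one without series 2 (-0.18; -0.18 to 0.042). The cause was not tested. Chosen after seeing the data were the spread per line, the median and length slope together, both covariates in the slope fits, the block with the length slope, and leaving out the 3 series 2 libraries. Each SKNAS group is 1 series, so its results rest on time points alone.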
